A study of Mus musculus with 2 samples.

Results

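Gm42418, AY036118, Gm26917, Cmss1, Malat1 and Meg3 are 6 of the 31053 mouse genes counted in single nuclei of injured cortex. They were chosen on readouts of these libraries: their share of all UMIs (unique molecular identifiers, the molecules counted) by cell label, by library and in droplets without a nucleus, and the correlations of those shares. All of these are therefore given as a description, with no test. Every member passed the filter on low counts used below for the comparison of neurons and microglia.

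The study followed mild traumatic brain injury (mTBI) in Atf3-CreER::Sun1-sfGFP mice (genotype Atf3-CreER:+/wt; SUN-SfGFP:+/wt) older than 7 weeks. In these animals a tamoxifen-inducible Cre under the Atf3 gene, an injury-response transcription factor, switches on a green fluorescent tag of the nuclear envelope. Tamoxifen was given at 4 and 5 days post injury (dpi), and GFP+/DRAQ5+ nuclei were sorted from the ipsilateral cortex at 7 dpi. There was 1 male and 1 female library, each from 4 pooled animals, so neither library gives the spread between animals, and sex, library and UMIs per nucleus cannot be told apart. The female library carries the sex label male, and was taken as female from its title. Xist, the RNA of the inactive X chromosome, was at 1729 CPM in its neurons and 2.4 CPM in those of the other library.

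The male library held 4003 labelled nuclei with 10823136 UMIs, and the female library held 4168 labelled nuclei with 23127444 UMIs. The median labelled nucleus had 1742 UMIs (male) and 3710 UMIs (female). The deposited labels name 21 cell classes, of which 15 had at least 50 nuclei over both libraries and held 8093 of the 8171 labelled nuclei. Of these 15, 9 were named for a neuronal type (L2/3 IT CTX-1, L2/3 IT CTX-2, L4/5 IT CTX, L5 PT CTX, L6 IT CTX, L6 CT CTX, Sst, Pvalb and Vip). The largest class was Micro-PVM, microglia and perivascular macrophages, with 1700 male and 2362 female nuclei. Only 1 barcode was shared between the nuclei of the libraries.

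The labels were checked against marker genes in CPM (UMIs of a gene as a share of all UMIs, on a scale where the shares of all genes sum to 1e+06). All 6 microglial markers were highest in Micro-PVM in both libraries, with Csf1r at 491 CPM (male) and 442.7 CPM (female). The label L6 IT CTX went partly against its markers: the microglial gene Cx3cr1 stood at 236.8 CPM there in the male library and 77.4 CPM in the female, against 30.7 and 7.74 CPM in L2/3 IT CTX-1. Summed over all 6 microglial markers, L6 IT CTX had 1058 CPM (male) and 344.6 CPM (female), Micro-PVM 3034 and 2608 CPM, and L2/3 IT CTX-1 119.9 and 41.5 CPM, with Inpp5d the most abundant of them in L6 IT CTX at 507.1 and 172.3 CPM. Of its nuclei, 372 (male) and 134 (female) lay outside the neurons that the authors kept as a subset. The contrast of neurons and microglia is therefore also given without L6 IT CTX where that moves it. The class named Unknown had the highest Rbfox3, Slc17a7 and Camk2a of all labels and is neuronal by these markers. It is kept apart here, and "neurons" and "neuronal labels" stand for the 9 named types. The mural gene Acta2 was at 4.53 CPM in male and 0 CPM in female SMC-Peri nuclei, where Rgs5 was at 0 CPM in both. The third mural gene, Pdgfrb, was at 27.2 and 34.8 CPM there, but higher in VLMC (41.1 and 93.5 CPM) and Astro (74.3 and 54.6 CPM), so SMC-Peri is used as deposited and not as a checked cell type.

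Nuclei hold RNA that is still being made, spliced or kept from export, and a few non-coding RNAs make up much of it. Malat1 is a long non-coding RNA of nuclear speckles, and Meg3 is the maternally expressed non-coding RNA of the imprinted Dlk1-Dio3 domain, abundant in neurons. Gm42418, AY036118 and Gm26917 are annotated as non-coding RNAs beside or inside a copy of ribosomal DNA, and Cmss1 is a protein-coding gene named after a yeast gene of the small ribosomal subunit.

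In GENCODE on GRCm38, the build of the files, Gm42418 (ENSMUSG00000098178) is a single exon of 1831 bases at chr17:39846958-39848788 on the plus strand. AY036118 (ENSMUSG00000105361) lies wholly inside it on the minus strand, at chr17:39847113-39848035. All 923 bases of AY036118 equal the other strand of Gm42418 bases 156 to 1078. The same segment carries a gene of ribosomal RNA type, CT010467.1, which was not among the genes counted, and RefSeq lists Gm42418 under the pseudogene Rn18s-rs5. RefSeq gives AY036118 another span, chr17:39848112-39898385, most of it outside Gm42418. Gm26917 (ENSMUSG00000097971; 3329 bases, chr17:39843013-39846341, plus strand) ends 616 bases before Gm42418 starts. No other annotated transcript held any of the 1802 stretches of 30 bases of Gm42418 in the same direction. The sources used here do not state whether counting used strand, so the split of UMIs between Gm42418 and AY036118 is uncertain.

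Cmss1 (ENSMUSG00000022748) spans 304865 bases at chr16:57302000-57606864 on the minus strand, although its longest transcript has 1150 bases in 10 exons. Filip1l lies in this span on the opposite strand over 220034 bases and had 61.2 CPM (male) and 81.4 CPM (female). Since the reference held unspliced transcripts, UMIs of Cmss1 include those from introns. Malat1 (ENSMUSG00000092341) is a run of 6983 bases at chr19:5795690-5802672, minus strand, and Meg3 (ENSMUSG00000021268) spans 30726 bases at chr12:109541001-109571726, plus strand. In Meg3, Gm26906 shares 3096 bases on the opposite strand and had 2.03 CPM (male) and 7.96 CPM (female).

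The assay captures RNA by its A-rich stretches, so the 20 bases richest in A were read from the longest transcript of each member. They are shown in capitals, 5′ to 3′ with 20 bases on each side, for AY036118 and for the same place on Gm42418, because the genes pair there, and for Gm26917 and Malat1, which have the fewest and the most A among the single-exon members.
Gm42418 bases 264 to 323 (chr17:39847221-39847280, plus strand): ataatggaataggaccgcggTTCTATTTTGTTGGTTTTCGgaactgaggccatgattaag
AY036118 bases 756 to 815 (chr17:39847221-39847280, minus strand): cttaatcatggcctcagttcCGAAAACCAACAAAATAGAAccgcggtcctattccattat
Gm26917 bases 2124 to 2183 (chr17:39845136-39845195, plus strand): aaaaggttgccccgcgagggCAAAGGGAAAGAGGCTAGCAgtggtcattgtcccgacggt
Malat1 bases 6654 to 6713 (chr19:5795960-5796019, minus strand): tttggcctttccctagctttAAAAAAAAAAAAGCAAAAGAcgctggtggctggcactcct

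AY036118 had 13 A in its richest 20 bases, and 32.2% of 21267 GENCODE transcripts within 20% of its length had as many. Gm42418 had at most 11 A in 20 bases, a number reached by 92.8% of 16585 transcripts of like length, and Gm26917 had 9, reached by 100% of 16832. Malat1 had 17 A, with an unbroken run of 12, and 24.5% of 3815 transcripts had as many A in 20 bases. Meg3 had 19 A, reached by 12.9% of 349 transcripts, and Cmss1 had 12, reached by 64.9% of 15647. These stretches describe the annotated transcripts, and which bases the counted molecules came from was not tested.

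Together the 6 genes took 14.2% (male) and 21.95% (female) of the UMIs of labelled nuclei. The ribosomal DNA genes and Cmss1 accounted for most of the gap, with 7.45% and 15% of UMIs, while Malat1 and Meg3 together took 6.73% and 6.9%. Gm42418 took the largest share of any gene in both libraries and Malat1 the next. After them came Rbfox1 and Nrxn3 in the male library and Rbfox1 in the female, each below 1% of UMIs, and Meg3 was the fifth and the fourth. These are shares of UMIs. Per kb of the longest transcript, Gm42418 had 38640 CPM (male) and 76890 CPM (female) and Malat1 8583 and 8915 CPM. AY036118 had 983.6 and 2739 CPM per kb and Gm26917 203.5 and 515.7 CPM per kb. Cmss1 and Meg3 are not set beside them on this scale, since their UMIs include those from introns.

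Gm42418, the most counted member, was highest in microglia. Its share was 14.7% of UMIs in male and 21.4% in female Micro-PVM nuclei (18.1% ± 4.79, mean ± SD of 2 libraries). L6 IT CTX followed with 11.5% and 18.8%, and Oligo, the oligodendrocytes, with 10.5% and 18.2%. These were the 3 highest labels in each library. Astro stood at 7.41% and 12.8%, VLMC at 5.53% and 13.3%, and SMC-Peri at 5.26% and 16%. Among neurons, L2/3 IT CTX-2 had 5.76% and 10.5%, Vip 4.45% and 12.3%, L2/3 IT CTX-1 4.26% and 9.64%, and L6 CT CTX 3.97% and 11.2%. The remaining neuronal labels were lower still in the male library. Sst had 3.82% and 8.48%, L5 PT CTX 3.78% and 7.68%, Pvalb 3.41% and 7.29%, and L4/5 IT CTX 2.87% and 9.92%. Unknown stood at 4.64% and 9.85%. The order of the 15 labels was alike in the libraries (Spearman correlation 0.85 over 15 labels that share libraries and depth), but the gap between libraries set the SD, and none of the 14 pairs of neighbours in the order differed by more than its SD. Labels can also be set side by side inside each library, a measure chosen after the data were seen. Micro-PVM then lay 3.14 (male) and 2.65 (female) percentage points above L6 IT CTX. Of the 14 pairs, 7 had the same order in both libraries, and in 6 the mean gap was larger than the SD of that gap over the 2 libraries.

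AY036118, which in the GENCODE model pairs with Gm42418 over its whole length, had the same 3 labels on top. It was 0.199% of UMIs in male and 0.408% in female Micro-PVM nuclei, 0.141% and 0.348% in Oligo, and 0.134% and 0.317% in L6 IT CTX. Its lowest share was 0.0342% in male L4/5 IT CTX and 0.119% in female Pvalb. Cmss1 was highest in L6 IT CTX, at 0.453% and 0.986%, and in Micro-PVM, at 0.356% and 0.731%. Its lowest shares were 0.1% in male L4/5 IT CTX and 0.308% in female Pvalb. For both genes, no neighbours in the order of labels differed beyond the SD across libraries. Taken inside each library, 6 of 14 gaps for AY036118 and 4 for Cmss1 were beyond the SD of the gap.

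Gm26917 lay next to Gm42418 in the genome but not in its pattern. It was highest in L6 IT CTX (0.151% of male and 0.337% of female UMIs) and Astro (0.132% and 0.268%), and lowest in L6 CT CTX of the male (0.0364%) and VLMC of the female library (0.0877%). Micro-PVM, at 0.064% and 0.144%, lay in the middle of the male order and lower in the female, and below the summed neurons at 0.0738% and 0.203%. Again no neighbours differed beyond the SD across libraries, and 4 of 14 gaps taken inside each library were beyond the SD of the gap.

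**Figure D1:**
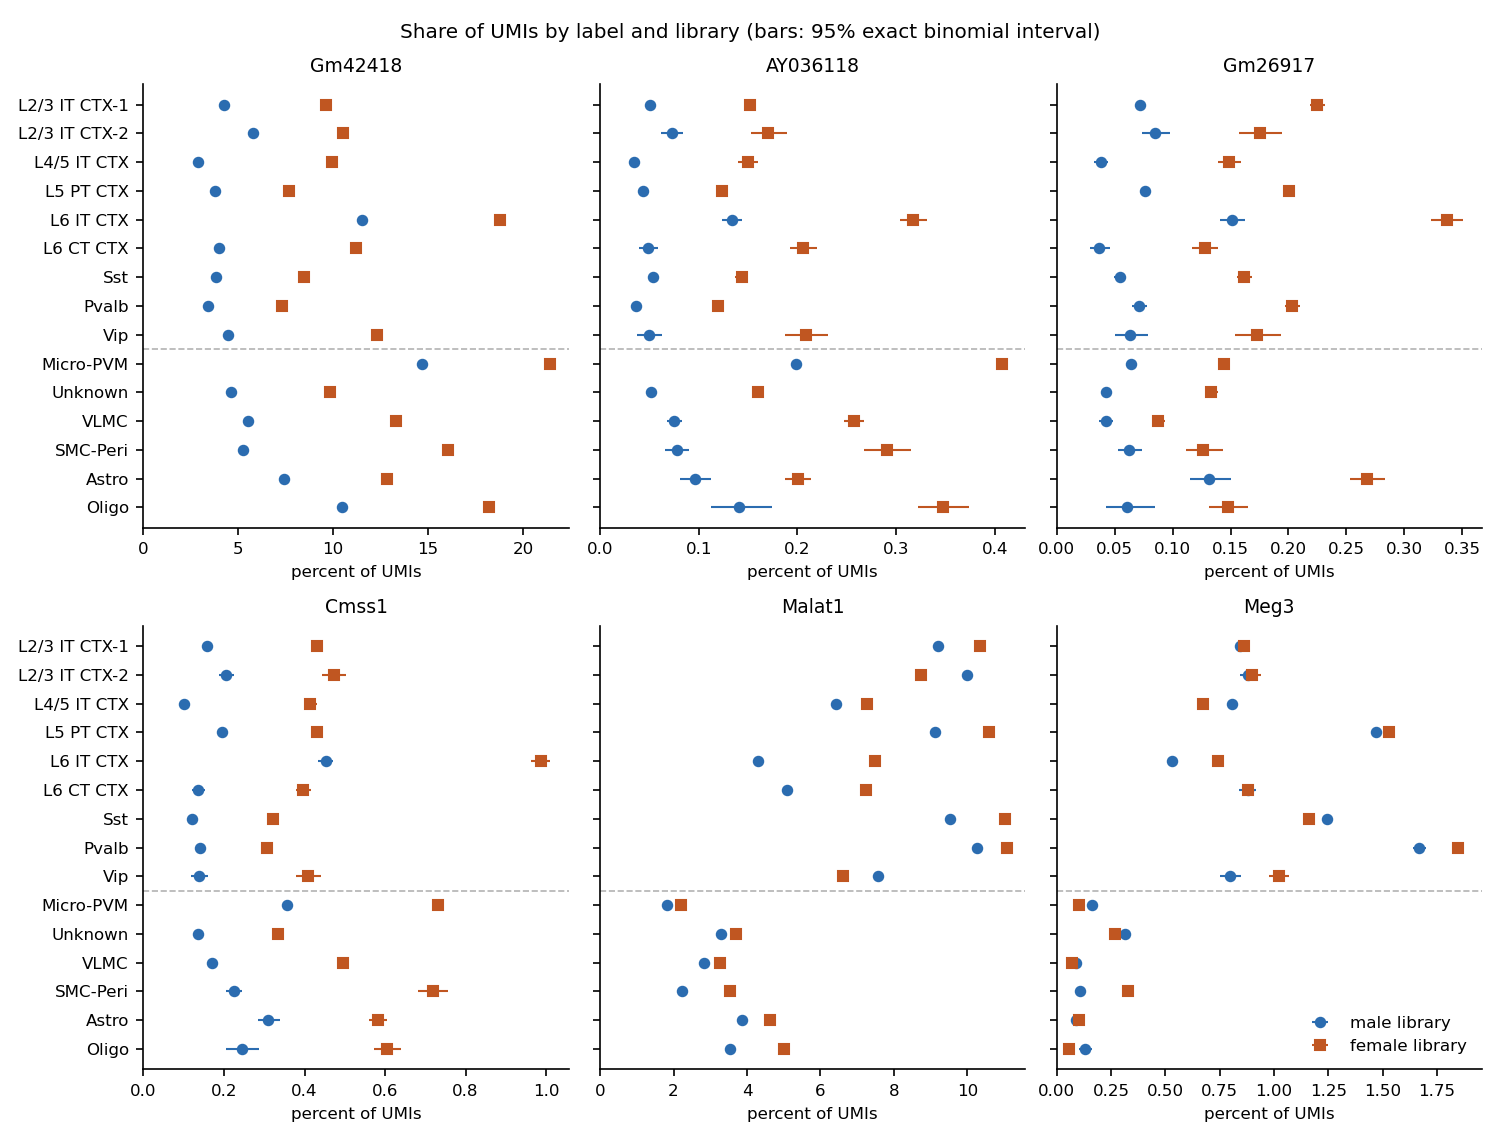
Percent of UMIs (x axis) taken by each of the 6 genes in the 15 labels (y axis; neuronal labels above the dashed line), with circles for the male and squares for the female library and bars for the exact binomial 95% interval, which covers counting error only. Gm42418 ran from 2.87% in male L4/5 IT CTX to 21.4% in female Micro-PVM, while Malat1 and Meg3 were highest in neuronal labels, with a median ratio of female to male share over labels of 1.16 and 1.02.

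Malat1 was high in neurons and low in microglia. It took 10.3% of UMIs in male and 11.1% in female Pvalb nuclei (10.7% ± 0.569, SD, n = 2 libraries), 9.53% and 11% in Sst, and 9.11% and 10.6% in L5 PT CTX. L2/3 IT CTX-1 had 9.21% and 10.3%, and L2/3 IT CTX-2 9.98% and 8.75%. Among these 5, no neighbours differed beyond the SD across libraries, but L2/3 IT CTX-2 and the label below it, Vip, did. Vip had 7.57% and 6.63%, L4/5 IT CTX with 6.43% and 7.28%, L6 CT CTX with 5.09% and 7.25%, and L6 IT CTX with 4.29% and 7.48%. Oligo had 3.55% and 5%, Astro 3.87% and 4.61%, and Unknown 3.28% and 3.7%. Unknown thus lay with the glia, not with the neurons whose markers it carried. VLMC had 2.84% and 3.27%, SMC-Peri 2.22% and 3.55%, and Micro-PVM was lowest with 1.82% and 2.21% (2.01% ± 0.276). Of the 14 neighbouring pairs, 3 differed beyond their SD, and 6 gaps inside libraries were beyond the SD of the gap.

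Meg3 was higher in each of the 9 named neuronal types than in any of the other labels of the same library, among which Unknown carried neuronal markers. Pvalb was highest, at 1.67% of male and 1.85% of female UMIs (1.76% ± 0.126, SD, n = 2 libraries), then L5 PT CTX at 1.47% and 1.53%, and Sst at 1.24% and 1.16%. Each of these 3 steps was larger than the SD. Vip stood at 0.799% and 1.02%, L2/3 IT CTX-2 at 0.88% and 0.897%, L6 CT CTX at 0.878% and 0.879%, and L2/3 IT CTX-1 at 0.845% and 0.862%. The last neurons were L4/5 IT CTX at 0.808% and 0.674%, and L6 IT CTX at 0.531% and 0.743%. Below them, Unknown had 0.313% and 0.268%, SMC-Peri 0.109% and 0.329%, and Micro-PVM 0.163% and 0.102%. The female value of SMC-Peri is that of 45 summed nuclei, whose median nucleus had 0.0645%, against 0.095% in the 92 male nuclei. By the mean of both libraries, the lowest shares were in Astro (0.0903% and 0.105%), Oligo (0.131% and 0.056%) and VLMC (0.089% and 0.0722%). From highest to lowest label, Meg3 spanned 18.8-fold (male) and 33-fold (female), and Gm42418 5.12-fold and 2.94-fold. For Meg3, 6 of 14 neighbouring pairs differed beyond their SD, and also 6 by the gaps inside libraries.

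Set against microglia, the 9 neuronal labels had less Gm42418, AY036118 and Cmss1 and more Malat1 and Meg3. The ratio of summed shares, neurons over microglia, was 0.309 (male) and 0.428 (female) for Gm42418. It was 0.273 and 0.368 for AY036118, 0.51 and 0.587 for Cmss1, and 1.15 and 1.41 for Gm26917. Malat1 had ratios of 4.73 and 4.57 and Meg3 of 6.83 and 12.4. The median log2 ratio over the 7739 male and 7288 female genes of at least 20 CPM was -0.22 and -0.21, and Meg3 lay at percentile 96.2 and 99.6 of them. Malat1 lay at percentile 89.5 and 85.7 and Gm26917 at 62.3 and 66.8. Cmss1 was at 26.1 and 32.9, Gm42418 at 14.9 and 22.7, and AY036118 at 13.4 and 19.5. Without the L6 IT CTX nuclei the mean log2 ratio of Cmss1 went from -0.87 to -1.04 and that of Malat1 from 2.22 to 2.26. In the authors' matrix corrected for depth, that of Gm42418 went from -1.46 to -0.80 and that of Malat1 to 1.31. Cmss1 there took 0.273% (male) and 0.707% (female) of the corrected totals in neurons, beside 0.419% and 0.769% in microglia, a smaller difference.

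Counted as molecules per nucleus, Gm42418 differed less between labels than all UMIs did. In the male library its median lay between 98 UMIs in L6 IT CTX and 177 UMIs in Micro-PVM, a 1.81-fold span, while the median of all UMIs per nucleus ran from 735 in L6 IT CTX to 5773 in L4/5 IT CTX, a 7.85-fold span. In the female library the medians of Gm42418 ran from 268.5 in L6 IT CTX to 1056 UMIs in L6 CT CTX (3.93-fold), and those of all UMIs from 1350 to 11616.5 (8.6-fold). Between single nuclei, those with more UMIs of other genes also had more of Gm42418, with a Spearman correlation of 0.4 (male) and 0.58 (female) over all nuclei and of 0.36 to 0.71 within male labels. Malat1 spanned 26.4-fold (male) and 35.4-fold (female), from 16 and 31 UMIs in L6 IT CTX to 422 and 1097.5 UMIs in Pvalb. Male Micro-PVM nuclei had a median of 1304 UMIs in all and 177 of Gm42418. Male Pvalb nuclei had 4567 UMIs in all and 148.5 of Gm42418.

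**Figure D2:**
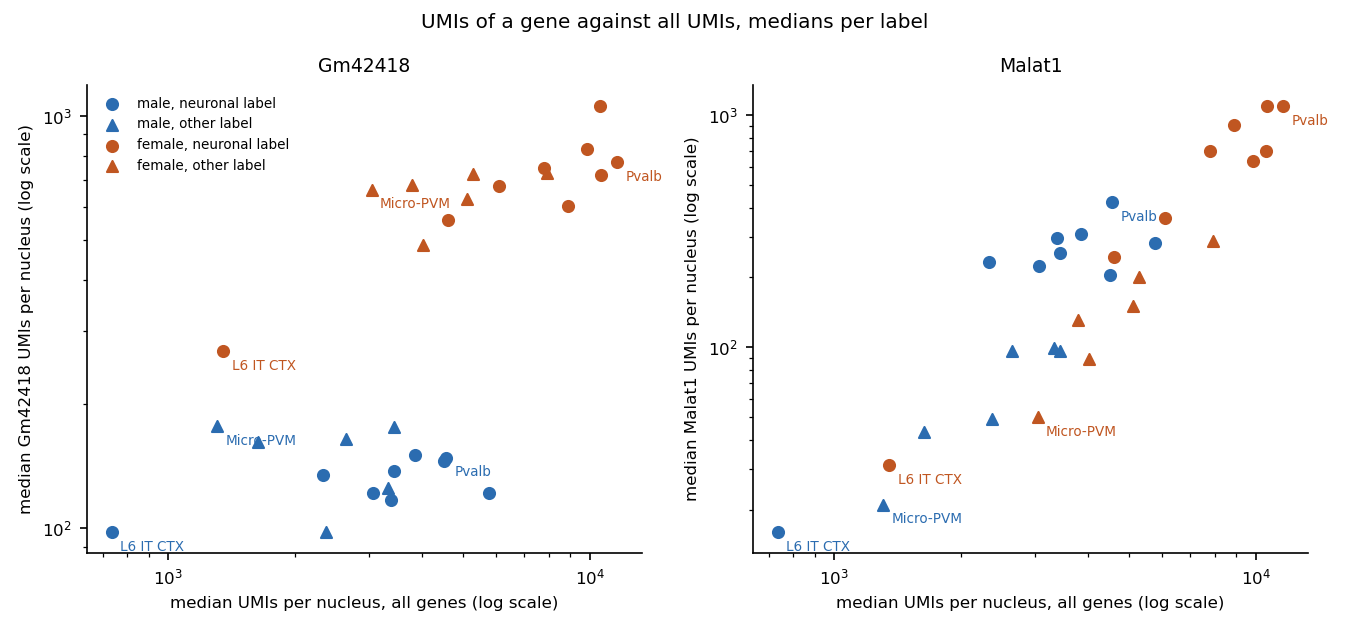
Median UMIs of Gm42418 (left) and Malat1 (right) per nucleus against the median of all UMIs per nucleus, both on log scales, with 1 point per label and library (circles neuronal, triangles the others, Unknown included; blue male, orange female). Male labels lie between 98 and 177 UMIs of Gm42418 over a 7.85-fold range of all UMIs, while Malat1 spans 26.4-fold.

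Within L6 IT CTX, the shares of Gm42418 and Malat1 differed by whether the authors had kept a nucleus among the neurons. Nuclei outside that subset had a median of 677 UMIs (male) and 906 (female), and Gm42418 took 14.8% and 27.2% of their UMIs. Nuclei inside it had 1357 and 2340.5 UMIs, with 7.3% and 16.2% of Gm42418. Malat1 went the other way, with 2.01% and 2.18% outside and 7.24% and 9.11% inside. Gm26917 differed less, with 0.119% and 0.304% outside and 0.194% and 0.347% inside. Depth moved with this split, and its part in it was not tested.

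Neurons of the authors' subset were also split by transcripts of Atf3, the gene that drives the reporter. To set nuclei of unlike depth side by side, each was thinned to 1000 UMIs, which left out shallower nuclei. In neurons with at least 1 Atf3 UMI, Gm42418 took 4.61% of the thinned UMIs of the male (328 nuclei) and 9.61% of the female (527 nuclei). In neurons with none it took 4.8% (982 nuclei) and 11.8% (627 nuclei), and unthinned 4.01% against 4.03% and 8.4% against 9.7%. Malat1 was 8.98% with and 8.02% without an Atf3 UMI in the male, and 10.4% and 8.53% in the female library. Meg3 was 1.33% and 1.15%, and 1.38% and 1.07%. The neurons with Atf3 were deeper, with a median of 4323 against 3429 UMIs (male) and 10961 against 6908 UMIs (female), so finding an Atf3 UMI and depth cannot be told apart.

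Barcodes not called as nuclei were read to set free RNA beside the nuclei. By the definition used to choose the members, barcodes of 1 to 50 UMIs, there were 404579 (male) and 666646 (female), of which 89% and 77.9% held a single UMI. There Gm42418 took 5.67% of UMIs in the male library (exact 95% binomial interval 5.6 to 5.73, counting error only) and 8.44% in the female (8.38 to 8.49), below its 7.07% and 14.1% in labelled nuclei. AY036118 was higher there than in nuclei, at 0.461% and 0.726% against 0.0908% and 0.253%. That is 5.08-fold and 2.87-fold, at percentile 99.8 of 8054 male and 97.9 of 7511 female genes. Meg3 was 1.06% and 0.913% in these droplets against 0.732% and 0.677% in nuclei. Malat1 was lower there, 3.64% and 4.63% against 5.99% and 6.23%. Cmss1 had 0.217% and 0.391% against 0.221% and 0.541%. Gm26917 had 0.093% and 0.129% against 0.0677% and 0.172%, so it was higher in droplets of the male and lower in those of the female library.

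Most uncalled UMIs did not lie in those barcodes. Uncalled barcodes of over 100 and up to 500 UMIs, a range chosen after the data were seen, numbered 72068 (male) and 74614 (female) and held 96.1% and 92.9% of all uncalled UMIs, with a median of 209 and 301 UMIs. Gm42418 took 15.2% and 20.9% of their UMIs, 2.15-fold and 1.49-fold its share in nuclei, with a median of 31 and 62 Gm42418 UMIs per barcode. That turns the direction seen in barcodes of 1 to 50 UMIs. AY036118 (0.238% and 0.468%) and Cmss1 (0.367% and 0.871%) were also higher than in nuclei, 2.62-fold and 1.85-fold for AY036118 and 1.66-fold and 1.61-fold for Cmss1. Malat1, at 3.84% and 3.78%, was 0.64-fold and 0.608-fold its share in nuclei. Meg3 was 0.706% and 0.52%, which is 0.964-fold and 0.769-fold. These ratios are to all labelled nuclei summed. Micro-PVM nuclei alone had 14.7% and 21.4% of Gm42418, near the share in these barcodes. They had 0.199% and 0.408% of AY036118 and 0.356% and 0.731% of Cmss1, closer to these barcodes than all nuclei were. For Malat1 (1.82% and 2.21%) and Meg3 (0.163% and 0.102%), Micro-PVM nuclei lay below these barcodes.

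Gm26917 was far lower in these barcodes than in nuclei. It was 0.0136% of UMIs in the male (interval 0.0131 to 0.0142) and 0.015% in the female library (0.0145 to 0.0155), 0.202-fold and 0.0874-fold its share in nuclei. Its log2 ratio was -2.31 and -3.52 beside a median of -0.14 over 7153 male and -0.18 over 6708 female genes, at percentile 0.028 and 0. The neighbouring genes Gm42418 and Gm26917 thus took opposite ends of the order, with Gm42418 at percentile 99.7 and 96.6. In barcodes of over 500 and up to 1000 UMIs, Gm26917 was 0.0907% and 0.299% where they were called as nuclei, and 0.0991% and 0.0535% where they were not.

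**Figure D3:**
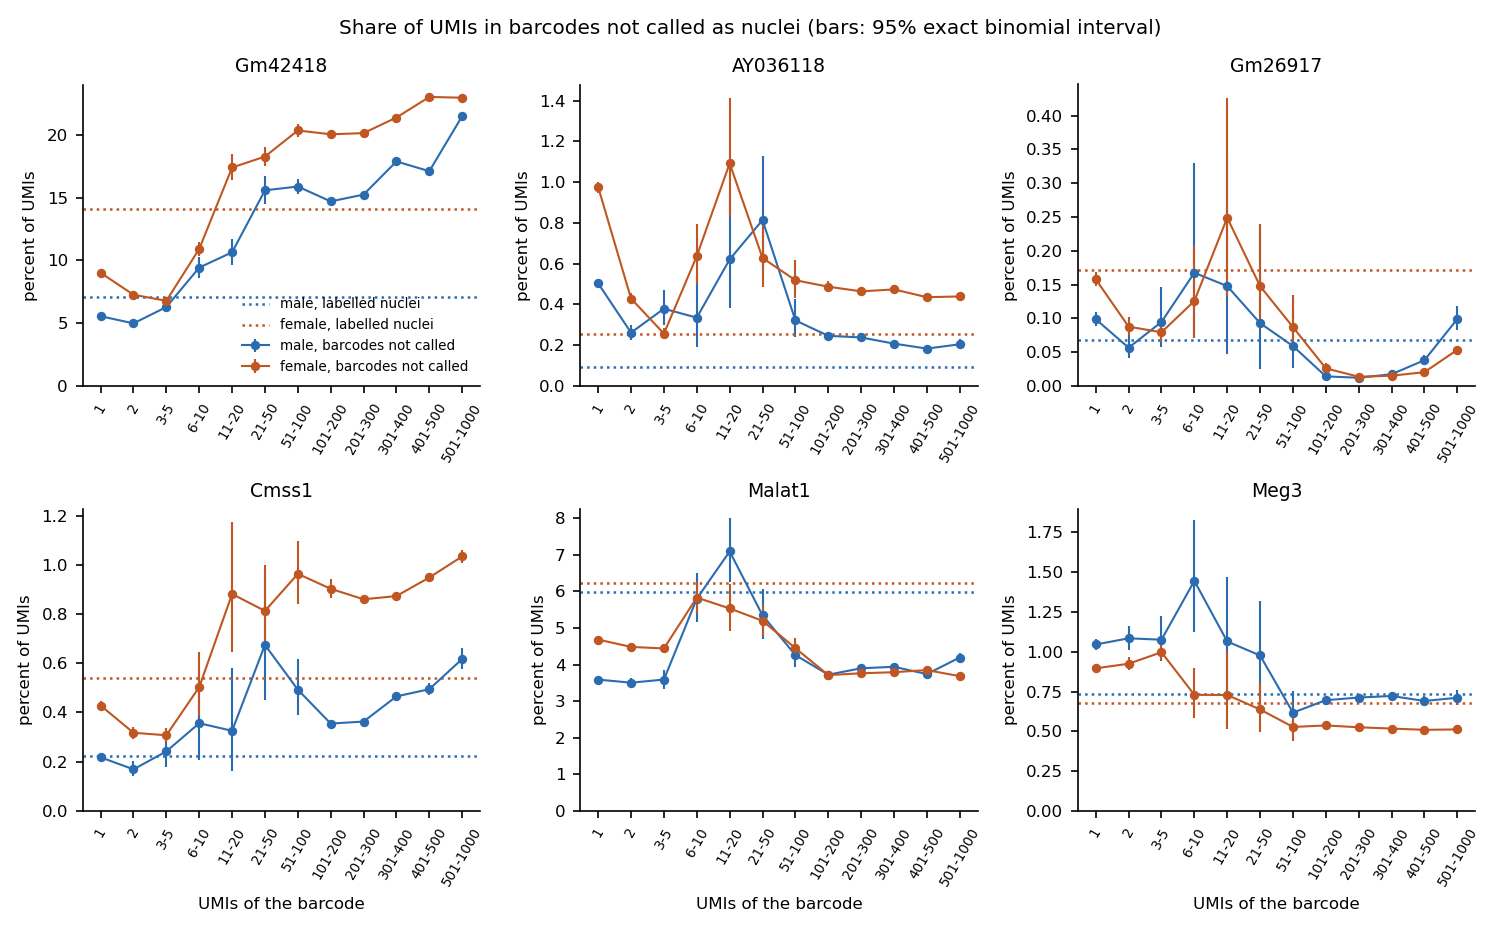
Percent of UMIs (y axis) of each gene in barcodes not called as nuclei, by the number of UMIs of the barcode (x axis), for the male (blue) and female (orange) library, with exact binomial 95% intervals and dotted lines for labelled nuclei of the same library. Gm42418 stood at 5.56% and 9.01% in barcodes of 1 UMI and at 15.2% and 20.1% in those of over 200 and up to 300 UMIs, where Gm26917 was at 0.0122% and 0.0137%.

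Across nuclei, the share of Gm42418 was lower the more UMIs a nucleus had. The Spearman correlation was -0.61 over 4003 male and -0.6 over 4168 female nuclei, where a share and its depth have the total in common. Cmss1 had -0.47 and -0.63 and AY036118 -0.28 and -0.38. Malat1 had 0.52 and 0.5 and Meg3 0.36 and 0.3. Gm26917 had no clear relation, with 0.04 and -0.08. Thinning each nucleus to 1000 UMIs, which left out 936 male and 157 female nuclei, gave -0.63 and -0.62 for Gm42418, -0.42 and -0.54 for Cmss1, 0.55 and 0.53 for Malat1, and -0.08 and -0.1 for Gm26917, whose male value thereby changed sign. In the authors' matrix corrected for depth, a setting chosen after the data were seen, the correlation of Malat1 turned to -0.17 (male) and -0.22 (female). There Gm42418 had -0.34 and -0.29, AY036118 -0.48 and -0.62, and Cmss1 -0.73 and -0.39. Gm26917 had -0.11 and -0.35, and Meg3 0.11 and 0.14.

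By their median over labels these correlations were weaker, except for Gm26917, whose medians of -0.09 (male) and -0.34 (female) were farther from 0 than over all nuclei. Some single labels lay farther from 0, as L2/3 IT CTX-1 (male, -0.66) and L2/3 IT CTX-2 (female, -0.69) did for Gm42418. For Gm42418 the median over 15 labels was -0.4 (male) and -0.26 (female), above 0 in 1 and 0 labels. For Cmss1 it was -0.38 and -0.49, below 0 in every label of both libraries. Malat1 had 0.27 and 0.18, above 0 in 10 and 13 labels. For Meg3 the medians within labels had the other sign, at -0.19 and -0.05 against 0.36 and 0.3 over all nuclei. Its correlation was above 0 in 4 male and 5 female labels. In L5 PT CTX, nuclei in the lowest of 4 depth classes had 6.54% of Gm42418 (male) and 12.6% (female), and those in the highest had 2.91% and 6.6%. In male Micro-PVM nuclei there was no such fall, with 13.1% in the lowest and 14.9% in the highest class. Female Micro-PVM nuclei went from 25.3% to 19.1%.

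**Figure D4:**
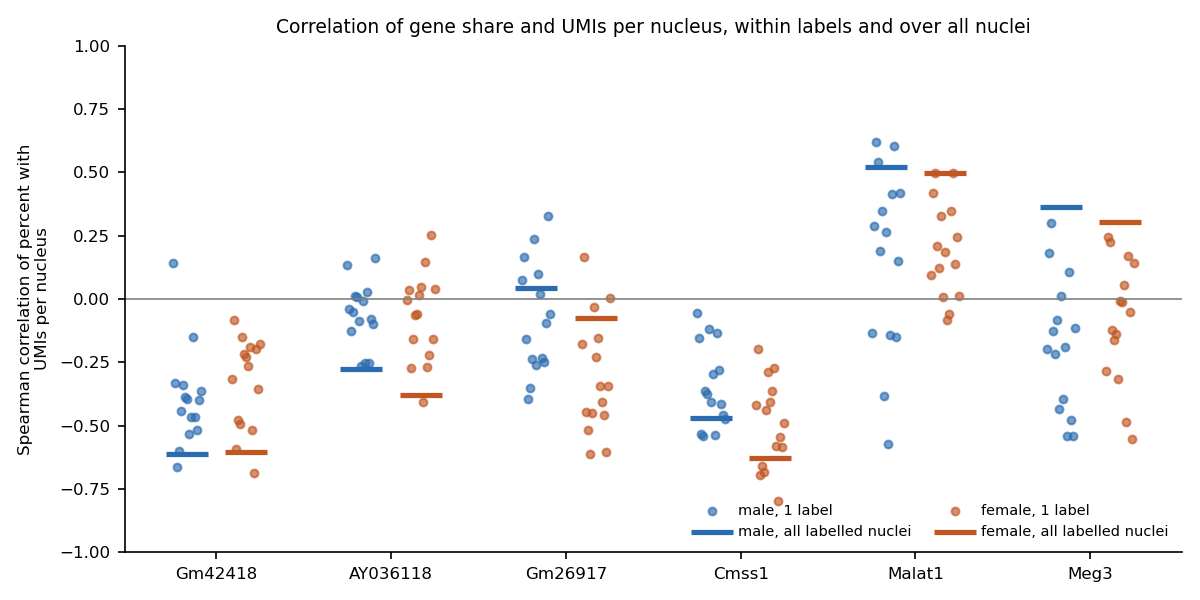
Spearman correlation (y axis) between the percent of UMIs of each gene and the UMIs per nucleus, with 1 point per label and a bar for all labelled nuclei, male in blue and female in orange. The bars lie at -0.61 and -0.6 for Gm42418 and at 0.52 and 0.5 for Malat1, and for these genes most labels lie closer to 0.

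Gm42418 shared its variation over nuclei with AY036118 and Cmss1. The Spearman correlation with AY036118 was 0.59 (male) and 0.75 (female), and with Cmss1 0.64 and 0.72. Within labels the medians were 0.4 and 0.6 for AY036118 and 0.66 and 0.71 for Cmss1, and all 15 labels were above 0 for each pair in both libraries. With Malat1, Gm42418 had -0.68 and -0.71 over all nuclei and medians of -0.19 and -0.4 within labels. These shares have the total in common, which lowers a correlation between the most counted genes. With Gm26917, Gm42418 had -0.02 and 0.002 over all nuclei but medians of 0.32 and 0.29 within labels. Malat1 and Meg3 had 0.65 and 0.59 over all nuclei and medians of 0.09 and -0.002 within labels. For this last pair, 10 male and 7 female labels of 15 were above 0.

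Between the libraries, the ribosomal DNA genes and Cmss1 stood apart. Their share was higher in the female library, by 1.99-fold for Gm42418, 2.78-fold for AY036118, 2.53-fold for Gm26917 and 2.45-fold for Cmss1. Each was higher in the female library in all 15 labels, with a median ratio over labels of 2.14, 2.98, 2.63 and 2.48. Malat1 differed by 1.04-fold and Meg3 by 0.924-fold. Of 7111 genes with at least 20 CPM in a library, 34 (0.478%) were over 2-fold higher and 171 (2.4%) over 2-fold lower in the female library, and the median log2 ratio was -0.12. AY036118, Gm26917 and Cmss1 are among the 34, and Gm42418, at 1.99-fold, lay just under the limit. These contrasts also chose the members, so nothing is read from their number, and with 1 library per sex there is no replicate check.

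The genes most like each member were taken by Pearson correlation of log2(CPM + 1) over the 30 sums of 15 labels in 2 libraries, among 6821 genes of at least 20 CPM on average. For Gm42418, the 3 closest included AY036118 (0.99) and Lars2, the mitochondrial leucyl-tRNA synthetase (0.96). Those of AY036118 included Gm42418 and Cmss1 (0.94), and those of Cmss1 included AY036118 and Gm42418 (both 0.94). Gm26917 was closest to Taco1 (0.84), Cmss1 (0.84) and Xist (0.78), which stood at 2.4 CPM in male and 1729 CPM in female neurons. Centred within each library, a setting chosen after the data were seen, Taco1 stayed among the 3 closest to Gm26917, while Cmss1 and Xist did not. Of the 3 closest to Cmss1, 1 stayed. Malat1 was closest to Kif3c (0.9), Dok5 (0.89) and Apc (0.89), and Meg3 to Prkar1b (0.98), Snhg11 (0.97) and Mirg (0.97), its neighbour in the imprinted domain. By rank correlation, 1 of the 3 was still among the 3 closest for each of Cmss1, Malat1 and Meg3. The sums share libraries and depth, so these values are a description.

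Genes outside the rule were tested between the 9 neuronal labels and Micro-PVM with edgeR's quasi-likelihood test and Benjamini-Hochberg adjustment over all 10934 genes that passed the filter. Of these, 2616 (23.9%) were higher and 3747 (34.3%) lower in neurons at an adjusted p under 0.05, with a median log2 difference of -0.23. After thinning to 1000 UMIs, 5559 genes could be tested, of which 1405 (25.3%) were higher and 1967 (35.4%) lower. The p-values measure the spread between the 2 libraries, and the labels themselves were made from the same counts. The median of all genes depended on the scaling, with -0.06 by DESeq2 and -0.11 with Gm42418 left out of the library sizes.

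Nuclear long non-coding RNAs, the class of Malat1 and Meg3, went both ways. Of 13 tested, 7 were higher (53.8%, beside 23.9% of all genes) and 4 lower in neurons (30.8%, beside 34.3%), with a median log2 difference of 1.2. After thinning, 7 of 10 tested were higher (70%, beside 25.3% of all genes) and 2 lower (20%, beside 35.4%). Mir9-3hg, the host gene of a neuronal microRNA, stood at 244.1 and 232.6 CPM in male and female neurons against 22.6 and 22.4 CPM in microglia (log2 3.38, adjusted p = 1.05e-08). Snhg11 had 2435 and 2352 CPM against 633.1 and 356.3 CPM (log2 2.13, adjusted p = 7.43e-07). Kcnq1ot1, Ftx, Miat, Rmst and Mir124a-1hg were also higher. Neat1, the scaffold of paraspeckles and the gene beside Malat1, was lower in neurons, at 143.1 and 100.3 CPM against 418.8 and 424.1 CPM (log2 -2.88, adjusted p = 2.27e-10), and so were Pvt1, Tug1 and Jpx. Xist and Tsix did not pass the test, and 4 of the 17 on the list, Snhg14, Gas5, Peg13 and Dleu2, had no matching symbol.

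In the Dlk1-Dio3 domain, the domain of Meg3, 1 of 5 listed genes could be tested. Mirg, a non-coding RNA that carries microRNAs, had 341.4 and 214.5 CPM in neurons against 28.9 and 18.6 CPM in microglia (log2 3.3, adjusted p = 2.35e-09). Dlk1, Rtl1 and Dio3 were too low for the filter, and Rian had no matching symbol. Meg3 itself, given as a description, had 11150 and 12650 CPM in neurons and 1630 and 1019 CPM in microglia.

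Proteins of nuclear speckles and paraspeckles, where Malat1 and Neat1 reside, were lower in neurons in 7 of 12 cases (58.3%, beside 34.3% of all genes) and higher in 0 (beside 23.9%), with a median log2 difference of -0.75. At an unadjusted p under 0.05, edgeR called 0 higher and 7 lower, where 2752 of all 10934 genes were higher and 3974 lower. DESeq2 called 0 higher (beside 28.3% of all genes) and 6 lower (50%, beside 30.95%). Son stood at 404.3 and 377.4 CPM in neurons against 733.4 and 666.8 CPM in microglia (log2 -0.92, adjusted p = 0.000122). Srsf2, Srsf3, Srsf5, Nono and Pspc1 were also lower. Malat1 had the other direction, as a description.

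Among factors of ribosomal RNA synthesis and processing, 1 of 15 tested was higher (6.67%, beside 23.9% of all genes) and 3 were lower in neurons (20%, beside 34.3%), and 5 were lower with library as a block (33.3%, beside 37.8% of all genes). After thinning, only 4 could be tested, of which 0 were higher (beside 25.3%) and 3 lower (75%, beside 35.4%). With no filter beyond 1 count, 0 of 16 were higher (beside 10.5%) and 4 lower (25%, beside 22.3%). The median log2 difference was -0.21, near that of all genes. Nop58, a core protein of small nucleolar ribonucleoproteins, was at 38.1 and 33.4 CPM in neurons and 23.4 and 21.9 CPM in microglia (log2 0.71, adjusted p = 0.00721). Utp14a (log2 -0.82), Dkc1 (-0.85) and Wdr43 (-0.64), which act in ribosomal RNA processing, were lower, with adjusted p of 0.00141, 0.0224 and 0.00228. Ubtf and Polr1a, of RNA polymerase I transcription, did not pass, at log2 -0.43 and -0.14. Gm42418, not tested, differed by -1.31 in the same fit.

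A list of 6 genes had been chosen on these libraries for their likeness to Gm42418, so their levels are a description, with no test. Camk1d, a calcium-dependent kinase, had 1956 and 2509 CPM in neurons and 5148 and 5328 CPM in microglia (log2 difference -1.2 in the same fit). Filip1l, which overlaps Cmss1, differed by -1.2, Lars2 by -0.99, Cdk8 by -0.5 and Jarid2 by 0.29. In uncalled barcodes of over 100 and up to 500 UMIs, Camk1d reached 10780 and 12540 CPM.

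Transcripts of mitochondria and of ribosomal proteins were counted as signs of cytoplasm. None of the 13 mitochondrially encoded genes passed in either direction by edgeR (beside 23.9% of all genes higher and 34.3% lower) or DESeq2 (beside 28.3% and 30.9%). At an unadjusted p under 0.05 in edgeR, 1 was lower, beside 3974 of all 10934 genes. With library as a block 2 were lower (15.4%, beside 37.8%), and with no filter beyond 1 count 7 (53.8%, beside 22.3%). Their sum was 3812 CPM (male) and 1523 CPM (female) in neurons and 3494 and 4221 CPM in microglia. The most abundant, mt-Co3, stood at 692.4 and 261.6 CPM in neurons and 704.1 and 864.3 CPM in microglia. Of 60 cytosolic ribosomal protein genes tested, 23 (38.3%, beside 34.3% of all genes) were lower and 0 higher in neurons, with a median log2 difference of -0.71. After thinning, 3 of 12 tested were lower (25%, beside 35.4%), and with no filter beyond 1 count 38 of 84 (45.2%, beside 22.3%). The sum over all 85 listed ribosomal protein genes was 1261 and 755.6 CPM in neurons and 1684 and 1120 CPM in microglia. DESeq2 called 14 lower (23.3%, beside 30.9%) and 1 higher (1.67%, beside 28.3%). The fit with library as a block had 33 lower (55%, beside 37.8%) and 1 higher (1.67%, beside 26.2%). At an unadjusted p under 0.05 edgeR had 26 lower and 1 higher, where 3974 of all 10934 genes were lower and 2752 higher. Rpl21, at 20.7 and 13.2 CPM in neurons and 60.5 and 50.4 CPM in microglia, had the smallest adjusted p (2.98e-07, log2 -1.83). Their part in the levels of Gm42418 was not tested. Atf3 was higher in neurons, at 102.8 and 168.2 CPM against 28.1 and 41.4 CPM (log2 1.52, adjusted p = 0.000843).

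**Figure D5:**
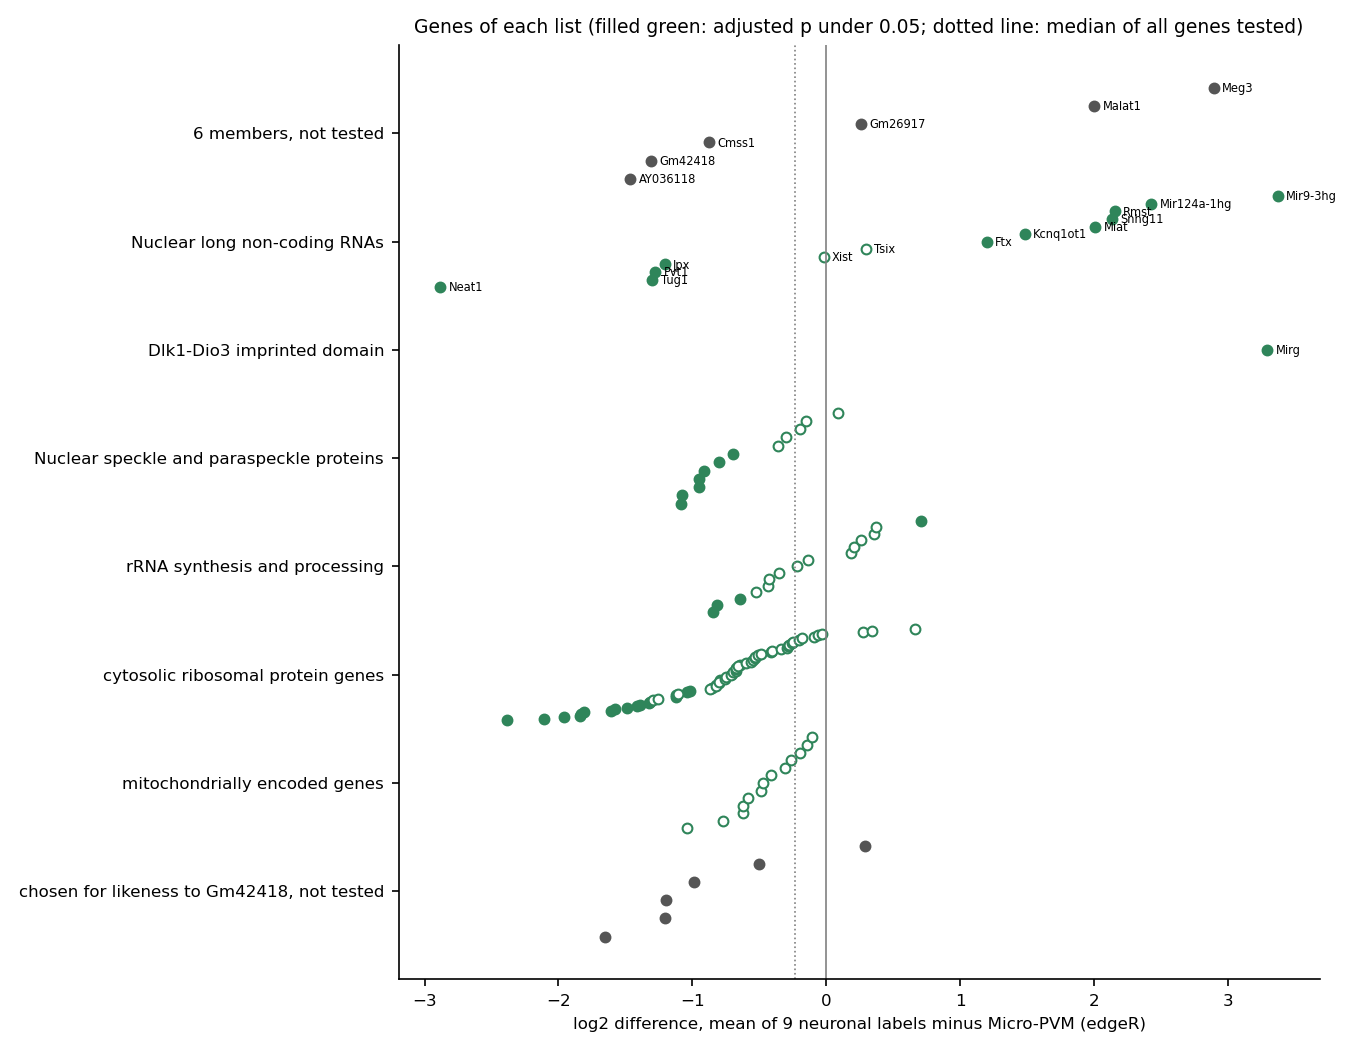
Log2 difference between the mean of 9 neuronal labels and Micro-PVM (x axis; edgeR) for each gene of the lists (y axis), filled where the adjusted p was under 0.05, with the 6 members and the genes chosen for likeness to Gm42418 in grey, which were not tested. Long non-coding RNAs spread from -2.88 (Neat1) to 3.38 (Mir9-3hg), while speckle proteins lie mostly left of 0; the dotted line marks the median of all genes at -0.23.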

How the data were processed

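Per the file headers and methods, UMI counts were made by the authors using Cell Ranger on a GRCm38 (mm10) reference of unspliced transcripts with reporter sequences added; the submitters' notes name version 3.1.0 of Cell Ranger, and headers and methods name others. The deposited counts of called nuclei and of all barcodes were used as they stand, with the authors' table of nuclei for labels, UMIs per nucleus and the percent of mitochondrial UMIs. The deposited matrix of both libraries holds a score, not counts: the authors corrected it for depth with SCTransform, its totals equal the corrected totals in all 8171 nuclei, and it served as an alternative only.

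Shares are summed UMIs of a gene as percent of all UMIs per label and library, with exact Clopper-Pearson 95% intervals. Ratios over genes had 0.5 CPM added. Genes were kept with at least 20 CPM in 1 or both of the 2 sets compared. These sets were the 2 libraries or, inside 1 library, neurons and microglia or barcodes and nuclei. Sums per label and library were tested with edgeR 4.0.16 (TMM, filterByExpr, glmQLFit and glmQLFTest; R 4.3.3), the contrast being the mean of 9 neuronal labels minus Micro-PVM, with no library term. DESeq2 1.42.0 was an alternative. Python 3.11.15, numpy 2.4.6, scipy 1.17.1 and pandas 2.3.3 did the rest. The fit was also run on simulated counts, drawn separately for each sum with no library effect. That run cannot show how the p-values hold where sums share a library. The sums of 1 library come from the same nuclei suspension, so library pairs them: over 105 pairs of labels, their deviations correlated by -0.02 to 0.41 (median 0.13).

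No doublet caller was run. The authors' limits of 6000 genes and 5% mitochondrial UMIs would leave out 104 nuclei. Coordinates and sequences are from GENCODE vM21 and RefSeq on GRCm38. No column of a nucleus lacked a library (0 unmapped). Members and lists were chosen with earlier results of these data known. Named genes are the members, the genes of the lists, the 3 genes most like each member, the 10 most counted genes, genes overlapping a member and Atf3. Some genes that this rule takes are not reported here. The ribosomal protein list takes symbols with Rpl or Rps and a digit; Rps6k kinases and Rps19bp1, which that rule would also take, were left out after the symbols were seen.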

Additional observations from a re-analysis of the deposited data

Results flagged for a closer look

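The correlation between a gene's share and the UMIs per nucleus had opposite signs in the libraries, at 0.1 or more from 0 in each, in 5 cases among all genes and labels. It was 0.1406 in male and -0.3177 in female Micro-PVM nuclei for Gm42418, and -0.2544 and 0.145 in L4/5 IT CTX for AY036118. For Gm26917 in Oligo it was 0.3268 and -0.3431, for Malat1 in L6 CT CTX -0.1512 and 0.1385, and for Meg3 in Vip -0.1162 and 0.1405. Apart from Micro-PVM these labels hold 26 to 76 nuclei per library, and the difference between the libraries was not tested.

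In barcodes of over 1000 and up to 5000 UMIs that were not called as nuclei, outside every comparison above, Gm42418 took 32.79% of UMIs in the male (17 barcodes) and 41.13% in the female library (131 barcodes), more than its 9.22% and 21.6% in called barcodes of the same depth. That difference was not tested.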

How the results depend on the processing

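Of 314 values compared with an alternative, 230 kept their direction and size, 65 moved and 19 turned direction. Settings chosen after the data were seen are the depth-corrected matrix, barcodes of over 100 and up to 500 UMIs, centring within libraries, gaps between labels inside libraries and leaving out L6 IT CTX. With 2 libraries, each value without 1 of them is that of the other. The cause of these shifts was not tested.

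The log2 ratio of neurons over microglia went to -0.80 for Gm42418, -0.37 for Cmss1 and 1.31 for Malat1 in the depth-corrected matrix. It was 0.57 for Gm26917 and -0.70 for Cmss1 as median over nuclei, and 0.65, -0.58 and 2.27 for Gm26917, Cmss1 and Malat1 after thinning. It was -1.05 for Cmss1 and 2.03 for Malat1 with Gm42418 left out of the total, and -1.04 and 2.26 without L6 IT CTX. Leaving out 1 library gave -1.69 to -1.22 for Gm42418, -1.88 to -1.44 for AY036118, 0.21 to 0.49 for Gm26917, -0.97 to -0.77 for Cmss1, 2.19 to 2.24 for Malat1 and 2.77 to 3.63 for Meg3.

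The log2 ratio of barcodes of 1 to 50 UMIs over nuclei turned for Gm42418 with 11 to 50 UMIs (0.64), 51 to 100 UMIs (0.85) and the wider range up to 500 (0.84), and was -0.058 against the median over labels. For Cmss1 these 4 settings gave 0.93, 0.99, 0.71 and 0.10. Gm26917 turned with 51 to 100 UMIs (-0.59), with Gm42418 left out (-0.033) and with the wider range (-2.92), where AY036118 was 1.14. Meg3 gave 0.22, -0.30, -0.22 and 0.35, and Malat1 -0.10 with 11 to 50 UMIs. Leaving out 1 library gave -0.74 to -0.32 for Gm42418, 1.52 to 2.35 for AY036118, -0.41 to 0.46 for Gm26917, -0.47 to -0.024 for Cmss1, -0.72 to -0.43 for Malat1 and 0.43 to 0.53 for Meg3.

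The mean correlation with UMIs per nucleus became, as median within labels, -0.33 for Gm42418, -0.055 for AY036118, -0.22 for Gm26917, -0.43 for Cmss1, 0.23 for Malat1 and -0.12 for Meg3. After thinning it was -0.63 for Gm42418, 0.54 for Malat1 and 0.38 for Meg3. In the depth-corrected matrix it was -0.32, -0.55, -0.23, -0.19 and 0.13 for Gm42418, AY036118, Gm26917, Malat1 and Meg3, and with Gm42418 left out 0.48 for Malat1. Leaving out 1 library gave -0.075 to 0.044 for Gm26917, -0.61 to -0.60 for Gm42418, -0.38 to -0.28 for AY036118, -0.63 to -0.47 for Cmss1, 0.50 to 0.52 for Malat1 and 0.30 to 0.36 for Meg3.

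Between members, medians within labels were 0.50 (Gm42418 with AY036118), 0.31 (with Gm26917), -0.29 (with Malat1), -0.068 (with Meg3) and 0.046 (Malat1 with Meg3). Thinning gave 0.040 for Gm42418 with Gm26917 and 0.60 with Cmss1. Leaving out 1 library gave -0.022 to 0.0019 for Gm42418 with Gm26917, 0.59 to 0.75 with AY036118, 0.64 to 0.72 with Cmss1, -0.71 to -0.68 with Malat1, -0.54 to -0.46 with Meg3 and 0.59 to 0.65 for Malat1 with Meg3.

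With 5 CPM as the least level, 79 genes were over 2-fold higher and 393 lower in the female library. After thinning, which left 5559 genes to test, edgeR called 1405 (25.3%) higher and 1967 (35.4%) lower in neurons. Of 4 factors of ribosomal RNA synthesis, 0 were higher and 3 lower (75%). Of 10 long non-coding RNAs, 7 were higher (70%) and 2 lower (20%). Of 12 ribosomal protein genes, 0 were higher and 3 lower (25%). With no filter beyond 1 count (23854 genes, 10.5% higher and 22.3% lower), 0 of 16 factors of ribosomal RNA synthesis were higher and 4 lower. In that fit 7 of 13 mitochondrial and 38 of 84 ribosomal protein genes were lower. DESeq2 called 14 of 60 ribosomal protein genes lower (23.3%, beside 30.95% of all genes) and 1 higher (beside 28.3%). The neuron subset had 14 of 60 lower (23.3%, beside 32.8% of all genes) and 1 higher (beside 25.85%), with 1 mitochondrial gene lower (7.69%). Without L6 IT CTX, 1 mitochondrial gene was lower (7.69%, beside 32.8%). Leaving Gm42418 out of the library sizes had 16 of 59 ribosomal protein genes lower (27.1%, beside 30.6%) and 1 higher (beside 25.9%). With library as a block, the pairing of sums from the same animals, 37.8% of all genes were lower and 26.2% higher. In that fit 5 factors of ribosomal RNA synthesis, 2 mitochondrial genes and 33 ribosomal protein genes were lower, and 1 ribosomal protein gene was higher.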
